A study of Homo sapiens with 2 samples.

Results

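Natural antisense transcripts are RNAs made from the strand opposite to another gene, and many carry that gene's name followed by AS and a number. Some start head to head with the sense gene, often from a shared CpG-rich promoter region, while others lie inside it or run into its end. A few act on the sense gene in cis, others act elsewhere or have no described role. This account covers the rows so named in an RNA sequencing table of MDA-MB-231, a mesenchymal-like human breast cancer cell line that lacks estrogen and progesterone receptors. The groups were cells carrying a short hairpin against CDK14, a cyclin-dependent kinase that acts in Wnt signalling (CDK14-sh), and cells carrying a scramble control. Each group held 1 library, so no difference has a replicate error and no p-value is given. The labels do not state whether the hairpin cells were a pool or a clone, nor how long the hairpin was expressed.

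Of 29452 rows in the table, 781 had a name ending in -AS and a number, and 302 of these reached 1 RPKM (reads scaled to the exon length of the row and to all assigned reads of the library) in the higher library. These 302 rows are the members, so a level near or above that limit is not a finding. The lowest 2 inside the limit were SLFNL1-AS1, at 0.848 RPKM in CDK14-sh and 1.00 RPKM in scramble, and SLC7A11-AS1, at 0.650 and 1.01 RPKM in the same order. The nearest 2 outside were BIRC6-AS1, at 0.556 RPKM in CDK14-sh and 1.00 RPKM in scramble (0.999946 before rounding), and RBM26-AS1, at 0.983 and 0.543 RPKM in the same order. Of the 479 rows outside, 38 had no read in either library. GENCODE release 29 lists 233 members as antisense, 24 as processed transcripts, 17 as lincRNA and 1, NCBP2-AS2, as protein-coding, and 20 matched no entry by name and position. A row for the sense gene, named before the hyphen, was found for 296 members, which pair with 287 distinct genes because 9 genes have 2 antisense rows each. The table used here has no row of the sense name for the other 6, which are CYP4A22-AS1, ANKRD34C-AS1, CCDC144NL-AS1, MLK7-AS1, FGD5-AS1 and MFI2-AS1.

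The libraries held 15478156 reads assigned to rows in CDK14-sh and 17217564 in scramble. CDK14 itself stood at 0.548 RPKM in CDK14-sh and 2.48 RPKM in scramble, 22.1% of the control level (95% counting interval 16.4% to 29.4%). Markers of the line were present: VIM, CD44, AXL, CAV1 and MSN ranged between 36.1 and 146 RPKM in CDK14-sh and between 65.2 and 249 RPKM in scramble. They differed between the libraries: MSN was at 39.0% of its scramble level in CDK14-sh, CAV1 at 55.4%, VIM at 58.7%, AXL at 94.3% and CD44 at 116%, and their part in the results on antisense rows was not tested. Of 6 markers expected to be low, PGR and CDH1 had no read in CDK14-sh, and the highest, EPCAM, was at 5.46 RPKM in CDK14-sh and 5.33 RPKM in scramble. Among 7 markers of leukocytes, endothelium and fibroblasts the summed level was 129 RPKM in CDK14-sh and 130 RPKM in scramble, nearly all of it from CD68, a lysosomal protein. DCN had no read in either library.

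Sense and antisense transcripts overlap, and what a row holds depends on how reads there were assigned. Of the 302 members, 250 share at least 1 exon base with their partner, 267 share one with any other row, and 35 share none. The library kit was stranded, but the counts do not settle whether strands were kept apart. Some rows lie wholly inside the exons of a single row on the opposite strand, itself at 20 RPKM or more. In CDK14-sh 46 such rows had a median level of 1.25 times the covering row, and in scramble 45 had 1.24 times. None of these rows was at 0 in either library. For rows inside the exons of a row on the same strand, the median was 0.116 times in CDK14-sh (8 rows) and 0.414 times in scramble (11 rows). Which counting options gave these levels was not tested. From the levels alone it cannot be told whether reads over shared bases came from the antisense or the sense transcript. Many members that share exon bases are therefore described here beside their partner, but some are given without its values.

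The shared bases of 3 pairs show the problem, because a fragment of either RNA covers the same positions. FARSA-AS1 shares 25 of its 241 bases with FARSA, which encodes the alpha subunit of phenylalanyl-tRNA synthetase, and these are all printed here. VIM-AS1 shares 641 of 1992 bases with VIM (vimentin) and DSG2-AS1 shares 171 of 2024 bases with DSG2 (desmoglein 2, a desmosomal cadherin), each shown by the 30 bases at the middle of the shared block. Both lines of a pair run 5′ to 3′ on their own strand and are reverse complements, read from GENCODE release 29 transcripts on GRCh38 at chr19:12930522-12930546, chr10:17229650-17229679 and chr18:31545806-31545835.
FARSA-AS1: cagtcgctggaaaagagaggctgca
FARSA: tgcagcctctcttttccagcgactg
VIM-AS1: aagtccaccgagtcctgcaggagccgcacc
VIM: ggtgcggctcctgcaggactcggtggactt
DSG2-AS1: taaaactgcaacaaccaatagaagcattca
DSG2: tgaatgcttctattggttgttgcagtttta

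By position, 77 members start within 1 kb of the partner's start on the opposite strand, 91 lie within the partner's span, 73 overlap it with their 3′ part, 40 with their 5′ part from a start further than 1 kb away, and 13 span it. Windows of 300 bases, taken from 250 bases upstream to 50 bases downstream of the sense start (RefSeq, GRCh38.p14), are shown for 3 pairs that start close together, share no exon base and are described further on. They lie at chr3:129893662-129893961 (TMCC1), chr3:196942479-196942778 (NCBP2) and chr4:52659252-52659551 (USP46), and all are printed on the minus strand, the sense strand. The antisense row starts, on the other strand, at base 91 of the TMCC1 window, base 156 of the NCBP2 window and base 146 of the USP46 window. Distances between starts given further on are from the table's own exons, so they can differ from these windows. Capitals mark GGGCGG, the GC box, and CCAAT, on either strand.
TMCC1: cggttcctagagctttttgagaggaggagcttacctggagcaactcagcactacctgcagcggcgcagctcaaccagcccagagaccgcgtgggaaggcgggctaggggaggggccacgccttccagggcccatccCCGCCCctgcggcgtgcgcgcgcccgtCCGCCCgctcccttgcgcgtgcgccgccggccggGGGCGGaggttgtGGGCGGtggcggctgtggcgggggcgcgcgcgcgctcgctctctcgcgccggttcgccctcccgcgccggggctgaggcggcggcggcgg
NCBP2: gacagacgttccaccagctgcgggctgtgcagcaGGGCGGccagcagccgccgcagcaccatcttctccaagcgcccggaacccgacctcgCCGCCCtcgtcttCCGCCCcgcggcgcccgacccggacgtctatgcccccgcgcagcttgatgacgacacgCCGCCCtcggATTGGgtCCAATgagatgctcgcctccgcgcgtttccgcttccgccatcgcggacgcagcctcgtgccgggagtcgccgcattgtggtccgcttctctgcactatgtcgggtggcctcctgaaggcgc
USP46: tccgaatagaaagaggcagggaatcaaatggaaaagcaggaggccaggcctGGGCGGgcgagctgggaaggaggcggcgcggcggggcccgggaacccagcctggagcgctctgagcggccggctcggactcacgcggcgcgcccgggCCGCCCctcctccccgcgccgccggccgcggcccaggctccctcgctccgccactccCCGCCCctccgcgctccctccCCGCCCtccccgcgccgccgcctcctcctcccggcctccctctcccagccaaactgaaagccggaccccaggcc
Each window holds 4 matches to GGGCGG, a word present in 44.95% of all 35116 RefSeq promoter windows of this length, and 0 matches to TATAAA, present in 11.5% of them. RefSeq windows were found for 192 members. Over 52 windows of members that start within 1 kb of the partner, the median number of CG dinucleotides was 28 and 63.5% held GGGCGG, while over 169 windows of other members the median was 16 and 42.6% held it. These shares describe letters only, and a gene may have several windows.

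Most members were low. Their median level was 2.62 RPKM in CDK14-sh and 2.43 RPKM in scramble, and 19 reached 20 RPKM in CDK14-sh against 17 in scramble. Together they took 61256 reads in CDK14-sh and 69178 in scramble. The row at the top was FARSA-AS1, with 1190 reads in CDK14-sh and 991 in scramble, or 319 and 239 RPKM in the same order, followed by VIM-AS1 at 130 and 217 RPKM in the same order. NUCB1-AS1, which lies within the gene of the calcium-binding protein nucleobindin, was at 111 RPKM in CDK14-sh and 114 RPKM in scramble. RRM1-AS1, within the gene of the large subunit of ribonucleotide reductase, was at 97.7 RPKM in CDK14-sh and 95.3 RPKM in scramble.

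All 10 of the rows with the highest mean level share exon bases with the partner. LRRC75A-AS1, ARMCX3-AS1, EZR-AS1, MIF-AS1 and PRC1-AS1 are also among them, and these ranged between 33.5 and 45.9 RPKM in CDK14-sh and between 31.6 and 48.5 RPKM in scramble. Among these 10, the log2 ratio of CDK14-sh over scramble (with 0.1 RPKM added to each level) was -0.75 in VIM-AS1 and 0.42 in FARSA-AS1. In the remaining rows it lay between -0.17 (EZR-AS1) and 0.25 (MIF-AS1). The partner's mean level spread over the shared bases would give 36.9% of the scramble reads of VIM-AS1, 10.1% of those of NUCB1-AS1 and 2.37% of those of FARSA-AS1. This figure assumes even coverage of the partner and was not tested further.

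Relative to the partner, the median level was higher in members with more exon bases in common, but the share of members above their partner did not follow that order. Members sharing over 25% of their bases stood at a median of 0.82 times the partner's RPKM in CDK14-sh and 0.77 times in scramble (93 pairs). Those sharing up to 25% stood at 0.50 times in CDK14-sh and 0.41 times in scramble (157 pairs), and those sharing none at 0.28 times and 0.25 times in the same order (46 pairs). Pairs whose partner had no read in a library, such as A2ML1-AS1 and CERS3-AS1, are in these pair numbers but not in that library's median. The antisense row was above its partner in 37.6% of pairs sharing over 25%, 26.1% of those sharing up to 25% and 37.0% of those sharing none in CDK14-sh. In scramble these shares were 37.6%, 24.2% and 30.4%. Over all 296 pairs there were 93 such pairs in CDK14-sh and 87 in scramble.

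**Figure D1:**
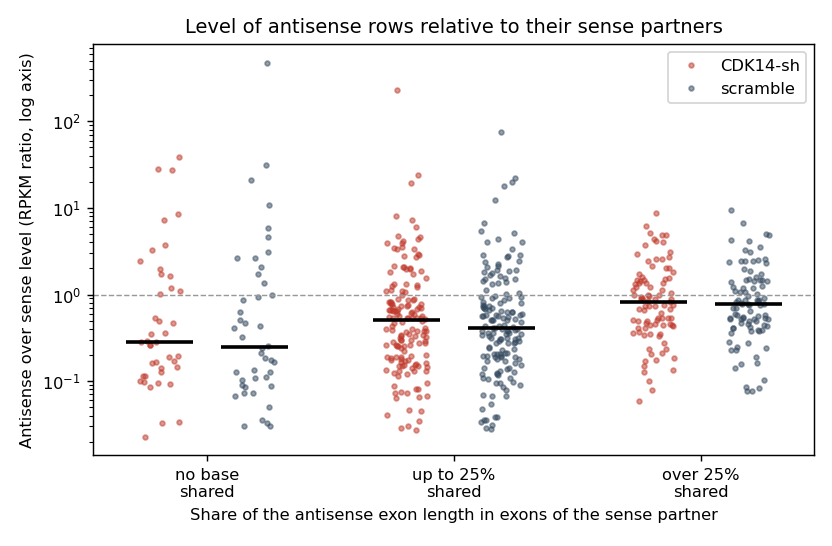
Each point is a pair, plotted by the antisense level over the sense level (ratio of RPKM, log axis) in CDK14-sh and in scramble, and grouped by the share of antisense exon bases that lie in exons of the partner; black bars are medians and ratios of 0 or without a sense level are left out. With ratios of 0 included, the medians with over 25% shared (0.82 in CDK14-sh and 0.77 in scramble) lie above those with none shared (0.28 in CDK14-sh and 0.25 in scramble).

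Between the libraries, 10 of the 302 members were at least 2-fold higher in CDK14-sh (3.31%) and 4 at least 2-fold lower (1.32%). Over all 14878 rows with at least 1 RPKM, the percent higher was 3.21 and the percent lower 3.47, so in RPKM the share of higher members was near that background and the share of lower ones under it. The balance depends on the unit: rescaled to TPM, the same 302 members had 6 higher and 6 lower, and 1 TPM or more was reached by 377 antisense rows with 10 higher and 12 lower (2.65% and 3.18%, where 3.57% of all 17068 rows at 1 TPM were higher and 6.61% lower). The median log2 ratio in RPKM was 0.06 over members and 0.04 over all rows. At 1.5-fold in RPKM, 51 of the 302 members were higher and 24 lower, where 9.11% and 9.55% of all rows were. At this threshold the share of higher members was above that background and the share of lower ones under it. The other 227 lay within 1.5-fold. Of the 14 past 2-fold, 6 did not reach 30 reads in either library. Among the 246 members with at least 30 reads, 6 were higher and 2 lower (2.44% and 0.81%), where 1.25% of all 13299 rows with as many reads were higher and 2.18% lower.

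**Figure D2:**
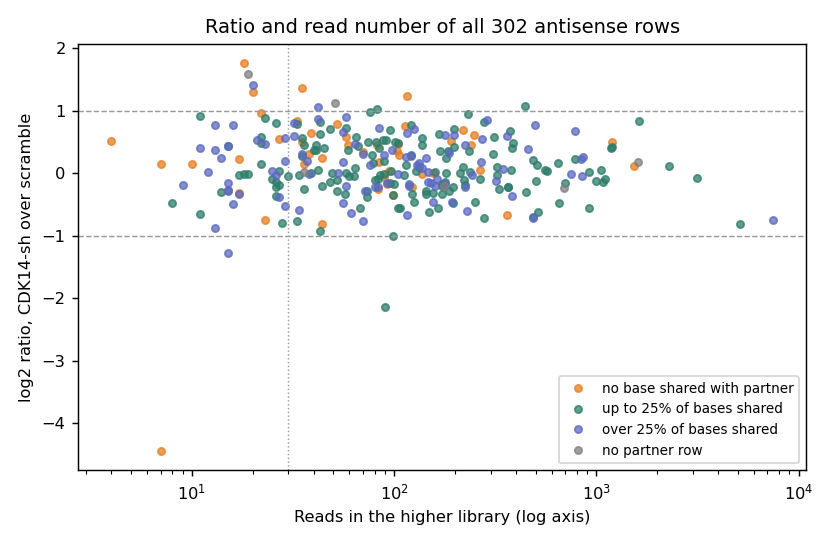
Each of the 302 antisense rows is plotted by its reads in the higher library (log axis) and its log2 ratio of CDK14-sh over scramble, coloured by the share of exon bases in common with the partner. Dashed lines mark 2-fold and the dotted line 30 reads; 8 rows right of that line lie past 2-fold, 6 above and 2 below, and the lowest point is a row with 0 reads in CDK14-sh and 7 in scramble.

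The largest difference among members with at least 30 reads was in DSG2-AS1. This row (chr18:31542146-31556911, minus strand, GRCh38 as for all positions here) had 16 reads in CDK14-sh and 90 in scramble. Its level was 0.511 RPKM in CDK14-sh and 2.58 RPKM in scramble, 5.06-fold lower in CDK14-sh (2.95 to 9.22, as all intervals here a 95% counting interval). DSG2, on the other strand, was at 4.51 RPKM in CDK14-sh and 13.7 RPKM in scramble, 3.03-fold lower (2.72 to 3.39). The printed bases belong to the 8.45% of DSG2-AS1 that lies in a DSG2 exon, and the 2 intervals overlap, so a larger difference in the antisense than in the sense row was not detectable at this depth.

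HMGN3-AS1 (chr6:79233718-79236797, plus strand) had 42 reads in CDK14-sh and 99 in scramble. Its level was 0.921 RPKM in CDK14-sh and 1.95 RPKM in scramble, 2.12-fold lower (1.46 to 3.12). Its partner HMGN3, which encodes a nucleosome-binding protein, was at 19.9 RPKM in CDK14-sh and 67.2 RPKM in scramble, 3.38-fold lower (2.98 to 3.84). In HMGN3-AS1, 6.55% of the bases lie in exons of HMGN3. The mean level of HMGN3 spread over these bases would give 226% of the scramble reads of HMGN3-AS1. This figure assumes even coverage of HMGN3, and whether HMGN3 reads are counted in HMGN3-AS1 was not tested. DSG2 and HMGN3 are the pairs in which both rows passed 2-fold in the same direction with 0.1 RPKM added, and in each both rows were lower in CDK14-sh.

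TMCC1-AS1 was higher with no exon base in any other row. This row (chr3:129893871-129918575, plus strand) had 116 reads in CDK14-sh and 50 in scramble. Its level was 1.62 RPKM in CDK14-sh and 0.628 RPKM in scramble, 2.58-fold higher (1.84 to 3.67). TMCC1, which encodes a membrane protein of the endoplasmic reticulum and starts 295 bases away, was at 1.48 RPKM in CDK14-sh and 1.43 RPKM in scramble, a ratio of 1.03 (0.837 to 1.27). The antisense row was above its partner in CDK14-sh, at 1.10 times its level, and below it in scramble, at 0.438 times. The intervals of the 2 rows do not overlap.

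RGMB-AS1 (chr5:98769618-98773469, minus strand) held the most reads among the members past 2-fold, with 441 in CDK14-sh and 230 in scramble. Its level was 12.2 RPKM in CDK14-sh and 5.70 RPKM in scramble, 2.13-fold higher (1.81 to 2.51). RGMB, a co-receptor for bone morphogenetic proteins, was at 22.6 RPKM in CDK14-sh and 18.2 RPKM in scramble, 1.24-fold higher (1.17 to 1.32), and 15.5% of the antisense row lies in its exons.

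The other 4 members past 2-fold with at least 30 reads were higher in CDK14-sh and rest on fewer reads. ATP6V1B1-AS1 (chr2:70941817-70948610, minus strand), within the gene of a proton pump subunit, was at 1.99 RPKM in CDK14-sh and 0.714 RPKM in scramble (35 and 14 reads), 2.78-fold higher (1.46 to 5.60). A same-strand row, AC007040.11, holds 78.8% of its bases and was 1.23-fold higher (0.994 to 1.52), while ATP6V1B1 had 3 reads in each library. MFI2-AS1 (chr3:196999460-197004744, plus strand) was at 2.89 RPKM in CDK14-sh and 1.27 RPKM in scramble, 2.27-fold higher (1.38 to 3.82). It shares 26.0% of its bases with MELTF, the opposite-strand gene of melanotransferrin, which was 1.38-fold higher (1.25 to 1.54). PRRT3-AS1 (chr3:9947404-9954787, plus strand) was at 4.42 RPKM in CDK14-sh and 2.08 RPKM in scramble, 2.12-fold higher (1.24 to 3.74). It shares over 25% of its bases with PRRT3, which was also higher in CDK14-sh, at 0.508 RPKM against 0.221 RPKM in scramble. ZSCAN16-AS1 (chr6:28121795-28137293, minus strand) was at 2.45 RPKM in CDK14-sh and 1.15 RPKM in scramble, 2.12-fold higher (1.45 to 3.14), and the zinc finger gene ZSCAN16 had a ratio of 1.15 (0.837 to 1.59). In TPM the log2 ratios of RGMB-AS1, MFI2-AS1, PRRT3-AS1 and ZSCAN16-AS1 were 0.9338, 0.9992, 0.9164 and 0.9012, all under 2-fold. ZSCAN16-AS1 was also under 2-fold with the median of all ratios set to 0 (0.9791), and HMGN3-AS1 when library totals excluded mitochondrial reads (-0.9773).

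The next largest ratios with at least 30 reads stayed under 2-fold on the scale with 0.1 RPKM added. Under other scalings DLG1-AS1 passed it in TPM (-1.1137), and PROSER2-AS1 when library totals excluded mitochondrial reads (1.0367). PROSER2-AS1 was at 1.5 RPKM in CDK14-sh and 0.710 RPKM in scramble, 2.11-fold higher (1.42 to 3.18), where PROSER2 was 1.38-fold higher (1.14 to 1.65). RNASEH1-AS1 was at 12.3 RPKM in CDK14-sh and 6.34 RPKM in scramble, 1.94-fold higher (1.56 to 2.42), and RNASEH1, which encodes an enzyme that cuts the RNA of RNA-DNA hybrids, was 1.12-fold higher (1.01 to 1.25). CACTIN-AS1 and USP30-AS1 were 1.96-fold (1.25 to 3.09) and 1.87-fold higher (1.11 to 3.20). USP30, whose exons hold 35.5% of USP30-AS1, had a ratio of 1.24 (0.904 to 1.70). On the lower side, DLG1-AS1 was at 0.725 RPKM in CDK14-sh and 1.47 RPKM in scramble, 2.03-fold lower (1.16 to 3.70), beside the scaffold gene DLG1 at 1.45-fold lower (1.39 to 1.51). GATA2-AS1, which shares no base with another row, was 1.88-fold lower (1.10 to 3.33), and the transcription factor gene GATA2 had a ratio of 0.934 (0.691 to 1.26). ATP6V0E2-AS1 was 1.80-fold lower (1.18 to 2.78), and the interval of ST3GAL6-AS1, 1.75-fold lower, includes 1 (0.944 to 3.34).

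**Figure D3:**
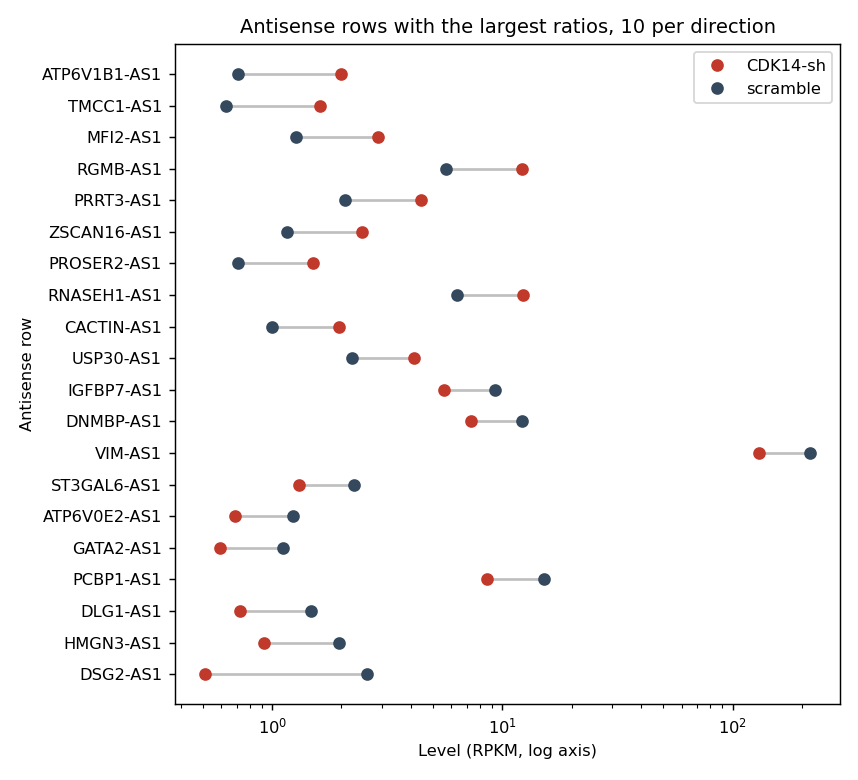
Levels (RPKM, log axis) in CDK14-sh and scramble of the 10 antisense rows with the largest ratio in each direction among those with at least 30 reads, 1 library per group. The upper 10 rows are higher in CDK14-sh, led by ATP6V1B1-AS1 at 1.99 RPKM against 0.714 RPKM in scramble, and the lower 10 are lower, with DSG2-AS1 at 0.511 RPKM against 2.58 RPKM in scramble.

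Several of the more abundant lower members differed by nearly the same factor as the partner they overlap. VIM-AS1 had 3994 reads in CDK14-sh and 7449 in scramble and was 1.68-fold lower (1.61 to 1.74). VIM, at 146 RPKM in CDK14-sh and 249 RPKM in scramble, was 1.70-fold lower (1.67 to 1.74). PCBP1-AS1 was at 8.58 RPKM in CDK14-sh and 15.2 RPKM in scramble, 1.77-fold lower (1.69 to 1.86), and PCBP1, which encodes a poly(C)-binding protein, was 1.81-fold lower (1.73 to 1.89). DNMBP-AS1 was 1.66-fold lower (1.43 to 1.94) beside DNMBP, a dynamin-binding scaffold gene, at 1.67-fold (1.58 to 1.77). IGFBP7-AS1 was 1.66-fold lower (1.36 to 2.04) and the growth factor-binding protein gene IGFBP7 1.63-fold lower (1.51 to 1.75). In each of these 4 pairs the 2 intervals overlap. LMO7-AS1, named after its values were seen, went otherwise. It shares 10.5% of its bases with LMO7 and was at 9.48 RPKM in CDK14-sh and 14.6 RPKM in scramble, 1.54-fold lower (1.17 to 2.03). LMO7 had a ratio of 0.987 (0.940 to 1.04), and the intervals of these rows do not overlap.

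TGFB2-AS1, named here after its values were seen, also lay lower with its partner but shares no base with any row. It stood at 23.5 RPKM in CDK14-sh and 37.5 RPKM in scramble, 1.59-fold lower (1.34 to 1.90). TGFB2, the gene of a transforming growth factor beta ligand that starts 557 bases away, was at 12.0 RPKM in CDK14-sh and 22.01 RPKM in scramble, 1.84-fold lower (1.70 to 1.99). NCBP2-AS2, chosen likewise, starts 26 bases from NCBP2, which encodes a subunit of the nuclear cap-binding complex, in the window printed above. It was at 7.95 RPKM in CDK14-sh and 4.68 RPKM in scramble, 1.70-fold higher (1.26 to 2.31), and NCBP2 was 1.49-fold higher (1.42 to 1.57).

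In other pairs the antisense and the sense row differed from each other. Of 232 pairs with at least 30 reads in both rows, 6 differed by 2-fold or more in their change, and 5 of these 6 start within 1 kb of each other. RAB30-AS1 was at 6.36 RPKM in CDK14-sh and 4.61 RPKM in scramble, 1.38-fold higher (1.13 to 1.67), while RAB30, which encodes a small GTPase of the Golgi, was at 0.748 and 1.75 RPKM in the same order, 2.34-fold lower (1.92 to 2.87). USP46-AS1 was at 2.34 RPKM in CDK14-sh and 1.88 RPKM in scramble, a ratio of 1.24 (0.762 to 2.04), while the deubiquitinase gene USP46, at 1.36 and 2.97 RPKM in the same order, was 2.18-fold lower (1.84 to 2.598). These 2 pairs share no exon base. ENTPD3-AS1 was at 0.938 RPKM in CDK14-sh and 1.02 RPKM in scramble, while ENTPD3, encoding a cell-surface nucleotidase, was at 1.36 and 4.21 RPKM in the same order, 3.09-fold lower (2.36 to 4.08).

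GABPB1-AS1 differed from its partner while sharing 2.62% of its bases with it. GABPB1-AS1 had 1620 reads in CDK14-sh and 1003 in scramble, 6.09 and 3.39 RPKM, and was 1.80-fold higher (1.66 to 1.95). GABPB1, which encodes a subunit of an ETS-family transcription factor, was at 2.98 RPKM in CDK14-sh and 3.59 RPKM in scramble, 1.21-fold lower (1.08 to 1.35). TMCC1-AS1 with TMCC1, described above, is also among the 6 pairs.

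Among 255 partners with at least 1 RPKM and 30 reads, 1 was at least 2-fold higher in CDK14-sh and 7 at least 2-fold lower (0.392% and 2.75%, beside the 1.25% and 2.18% of all rows given above). The higher one was PAX8, a paired-box transcription factor gene, at 1.27 RPKM in CDK14-sh and 0.534 RPKM in scramble, and PAX8-AS1 was 1.68-fold higher (1.42 to 1.98). Beside DSG2, HMGN3, RAB30, USP46 and ENTPD3, the lower ones were SERTAD4, 2.33-fold (2.01 to 2.71), and the cytidine deaminase gene APOBEC3B, 2.03-fold (1.63 to 2.55). Their antisense rows SERTAD4-AS1 and APOBEC3B-AS1 were 1.39-fold (1.11 to 1.75) and 1.40-fold lower (0.904 to 2.19).

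Over all pairs with at least 30 reads in both rows, both ratios lay on the same side of 0 in 175 of 232 pairs (75.4%). Of all 13299 rows with as many reads, 54.5% lay above 0. The share on the same side among unrelated or neighbouring rows was not computed, so it is open whether 75.4% is particular to antisense pairs. The absolute difference between the 2 log2 ratios had a median of 0.14 in 69 pairs sharing over 25% of the antisense bases, 0.22 in 133 pairs sharing up to 25%, and 0.28 in 30 pairs sharing none. Spearman's rho across these pairs was 0.68, 0.58 and 0.52 in that order. Over all 46 pairs sharing none, with no limit on reads, it was 0.18. It describes pairs, which share the 2 libraries and, where exons overlap, may share reads, and pairs are not replicates.

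**Figure D4:**
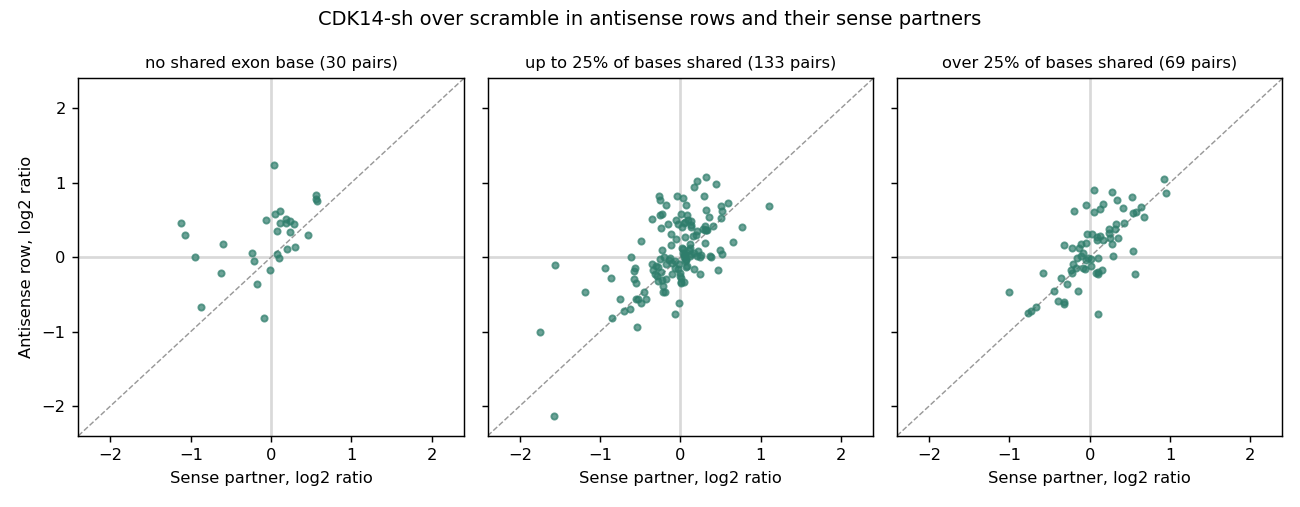
Each point is a pair with at least 30 reads in both rows, plotted by the log2 ratio of CDK14-sh over scramble in the sense partner (x axis) and in the antisense row (y axis), in panels by the share of antisense exon bases in common; the dashed line marks equal ratios. Points lie closer to the line with over 25% of bases shared (median distance 0.14 log2) than with none shared (0.28 log2).

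The 46 members that share no exon base with the partner had a median log2 ratio of 0.32, where all rows had 0.04. Of them 35 lay above 0 (76.1%), where 54.7% of all 14878 rows did. At least 2-fold higher were 4 and lower 1, where 3.21% of all rows were higher and 3.47% lower, and with at least 30 reads 2 of 35 were higher and 0 lower. The median was 0.00 in the 157 members sharing up to 25% and 0.09 in the 93 sharing more. In TPM, where all rows had a median of -0.11, these 3 medians were 0.18, -0.15 and -0.06 in that order. Of the 5 past 2-fold in this group, only TMCC1-AS1 and ATP6V1B1-AS1 had 30 reads. The other 3 were TNKS2-AS1 (18 reads in CDK14-sh and 5 in scramble), MCM8-AS1 (20 and 8) and CELSR3-AS1 (0 and 7), all named after their values were seen. CELSR3-AS1 is 196 bases long and stood at 2.07 RPKM in scramble. The remaining 3 members past 2-fold under 30 reads were CYP4A22-AS1 (19 reads in CDK14-sh and 6 in scramble), GFOD1-AS1 (20 and 8) and PLBD1-AS1 (5 and 15), also named after their values were seen.

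Rows with other names for non-coding transcripts are few, and no difference between their classes was tested. Of 68 LINC rows, 8 were at least 2-fold higher and 1 lower, with a median log2 ratio of 0.25, and of 16 host-gene rows (named SNHG or ending in HG) 1 was higher and 0 lower, with a median of 0.26. Over all rows 3.21% were higher and 3.47% lower, with a median of 0.04. Of 10 rows ending in IT and a number 0 were higher and 2 lower, and of 3 ending in OT and a number 0 were higher and 1 lower. None of the 5 rows ending in AS without a number passed 2-fold.

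A list of 49 antisense and related transcripts with published descriptions held 25 members, all with at least 30 reads. None passed 2-fold, 17 lay above 0 (68.0%), and the median log2 ratio was 0.16, where 54.5% of all 13299 rows with as many reads lay above 0 and their median was 0.04. OIP5-AS1, also called Cyrano and known to lower the microRNA miR-7 in the mouse, was at 6.05 RPKM in CDK14-sh and 4.58 RPKM in scramble, 1.32-fold higher (1.21 to 1.44), and it shares 3.71% of its bases with OIP5. OIP5 was at 4.76 RPKM in CDK14-sh and 5.64 RPKM in scramble, a ratio of 0.844 (0.635 to 1.12). MAPKAPK5-AS1 was at 14.02 RPKM in CDK14-sh and 8.17 RPKM in scramble, 1.72-fold higher (1.49 to 1.98), and shares 34.6% of its bases with the kinase gene MAPKAPK5, 1.28-fold higher (1.14 to 1.42). Past 1.5-fold, 4 of the list were higher, among them MAPKAPK5-AS1, GABPB1-AS1 and ST7-AS1, and 2 lower (VIM-AS1 and PCBP1-AS1), while 19 of the 25 lay within 1.5-fold, as did 11384 of the 13299 rows. FGD5-AS1 was at 20.2 RPKM in CDK14-sh and 17.8 RPKM in scramble, AFAP1-AS1 at 7.99 and 7.89 RPKM and PSMA3-AS1 at 13.0 and 12.0 RPKM in the same order.

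In the 6 members lying wholly in exons of the partner, no base belongs to the antisense row alone. Their ratios lay nearer the partner's in some pairs than in others. PAPPA-AS1 was 1.63-fold lower (1.19 to 2.25) and PAPPA, a metalloproteinase gene that acts on growth factor-binding proteins, 1.65-fold lower (1.38 to 1.96). C6orf47-AS1 was at 21.4 RPKM in CDK14-sh and 15.7 RPKM in scramble, and C6orf47 at 9.998 and 7.93 RPKM in the same order. NAV2-AS1 was 1.52-fold lower (1.22 to 1.89) and NAV2 1.25-fold lower (1.17 to 1.34), with overlapping intervals. PCF11-AS1 was at 1.49 RPKM in CDK14-sh and 1.19 RPKM in scramble, only 0.207 and 0.161 times the level of PCF11, a gene of transcription termination. The log2 ratio of PCF11-AS1 was 0.31 where that of PCF11 was -0.03. With 35 reads in CDK14-sh and 31 in scramble, the ratio of PCF11-AS1 was 1.26 (0.752 to 2.11), an interval that holds the 0.977 of PCF11. RNF185-AS1 and TAB3-AS2 had log2 ratios of -0.02 and -0.01, and RNF185 and TAB3 0.12 and 0.11. All 6 were named after their values were seen.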

How the data were processed

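The authors deposited 1 table of RPKM values per row for 2 libraries, with exon positions, strand and summed exon length, per the file headers. Libraries were made from total RNA with a stranded mRNA kit, per the labels' protocols. Subread 1.5.1, featureCounts and Bowtie 0.12.2, with the builds mm8 and GRCh38, are listed without roles per the submitters' processing notes. The sources used here do not state which strand or overlap options were set. Reads behind each value were recovered from RPKM and length, and 100% came out whole to within 0.01 read. A count of 3 reads is the floor per library.

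After 0.1 RPKM was added to both levels, the log2 ratio of CDK14-sh over scramble decided 2-fold calls; it understates differences of low rows. Printed folds are plain RPKM ratios with 95% Clopper-Pearson intervals on reads, which cover counting error only. Exon overlap was computed from the listed exons of all rows. Calculations were tested on simulated data. Named rows follow a rule: the 10 highest, the 10 largest ratios per direction with 30 reads, a list of described transcripts, rows past 2-fold with 30 reads, and pairs that passed or differed by 2-fold. Some rows that this rule names are not reported here. Members, lists and tests were chosen with earlier results of these data known. Alternatives changed pseudocount, filter, scaling, threshold and overlap. Figures used matplotlib 3.10.9 and intervals scipy 1.17.1, under pandas 2.3.3, numpy 2.4.6 and Python 3.11.15, with GENCODE release 29.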

Additional observations from a re-analysis of the deposited data

How the results depend on the processing

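No paired analysis was possible because only 1 library stands for each condition. The 10 higher and 4 lower members became 64 and 34 with no level filter (743 rows) and 1 and 2 after adding 1 RPKM instead of 0.1. They became 1 and 0 with at least 5 RPKM, 6 and 2 with 30 reads, and 51 and 24 at 1.5-fold. Over whole rows whose exons overlap no other row they were 2 and 1. Over rows sharing no base with the partner, a setting added after seeing the data, they were 6 and 1. In TPM, which shifts the median of all rows by -0.15 log2 and lets 377 rows pass 1 TPM, 10 were higher and 12 lower, while all rows at 1 TPM had 3.57% higher and 6.61% lower. The median log2 ratio of members, 0.06, was 0.0487 with 1 RPKM as pseudocount, 0.11 with no level filter and -0.0434 in TPM. It was 0.0133 with the median of all ratios set to 0 and 0.13 without mitochondrial reads in the totals. Both over rows whose exons overlap no other row and over rows sharing no base with the partner it was 0.30. Pairs on the same side of 0, 71.3% of 296, were 62.4% with no level filter, 82.6% with at least 5 RPKM and 66.0% in TPM. Pairs with the antisense level above the sense level, 31.4% in CDK14-sh and 29.4% in scramble, were 21.8% and 20.5% with no level filter and 40.2% and 39.1% with at least 5 RPKM, and 37.0% in CDK14-sh over rows sharing no base. Filters and overlap settings change which rows enter and not their ratios. Of 295 values of the 59 named members under other pseudocounts and scalings, 277 stayed within their counting interval and 18 moved out of it. These intervals are wide for rows with few reads, so staying inside is a weak check. A pseudocount cannot change the sign of a ratio. The scalings shift the median of all rows by -0.15 (TPM), -0.04 (median set to 0) and 0.04 log2 (without mitochondrial reads). No member past 2-fold could thus change sign, and 12 smaller values did. Depth limits the 56 members under 30 reads most.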
